A study of Homo sapiens with 6 samples.

Results

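The expression of TBX2, TBX3 and 7 genes for inhibitors of cyclin-dependent kinases (CDKs) was examined in SKOV3 ovarian cancer cells after silencing of KLF5. The 9 genes (TBX2, TBX3, CDKN1A, CDKN1B, CDKN1C, CDKN2A, CDKN2B, CDKN2C and CDKN2D) were chosen by name from the 29185 genes of the deposited table. All 9 were in it, and all 9 passed the filter on low counts that 15803 genes passed. The question was whether the CDK inhibitors, which TBX2 and TBX3 are known to repress, stood higher where TBX2 stood lower. TBX2 was not changed on its own and stood lower in the same libraries in which KLF5 was silenced. For the inhibitors, the lower TBX2 and the silencing of KLF5 therefore cannot be told apart.

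RNA-seq of poly(A) RNA had been performed on 3 libraries of sh-KLF5 cells and 3 libraries of sh-NC cells. SKOV3 is an established human ovarian carcinoma line. By the study's methods, the knockdown sequence was carried by a lentiviral vector with EGFP and puromycin resistance, and stable lines were selected with puromycin, so that expression was measured long after transduction rather than acutely. The labels give the control genotype as WT and name it NC elsewhere, and no drug treatment is listed for either group. The labels describe 1 silenced and 1 control condition, without a second knockdown sequence or re-expression of KLF5, so loss of KLF5, an unintended target of the sequence and a difference between the lines cannot be told apart. Nothing says that replicates came from separate transductions, and the p-values measure the spread between these libraries, which may be technical.

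TBX2 and TBX3 are closely related T-box transcription factors that act mainly as repressors. They are known for bypassing senescence by holding down CDK inhibitors, CDKN1A and the CDKN2A locus in particular, and both are overexpressed in several carcinomas. CDK inhibitors come in 2 families. The CIP/KIP proteins p21 (CDKN1A), p27 (CDKN1B) and p57 (CDKN1C) bind cyclin-CDK complexes broadly, whereas the INK4 proteins p16INK4a (CDKN2A), p15 (CDKN2B), p18 (CDKN2C) and p19 (CDKN2D) bind CDK4 and CDK6 and so keep the retinoblastoma protein active against E2F factors.

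The promoters show which inhibitors carried the T-box half-site, the letters GGTGTGA, next to the start. Windows of 300 bases, 250 before and 50 after a start, were taken from RefSeq (GRCh38.p14) and existed for 6 of the 9 members, CDKN1A, CDKN1B, CDKN2A, CDKN2B, CDKN2C and CDKN2D. The sequences run 5′ to 3′ on the strand of the gene, and capitals mark, on either strand, the half-site (reverse complement TCACACC) and its shorter core GTGTGA (reverse complement TCACAC), which lies inside it, the GC box GGGCGG (reverse complement CCGCCC) and the CACCC element (reverse complement GGGTG), the last pair being letters that KLF and SP proteins are known to bind. Where motifs overlap, their capitals run together.
CDKN1A, chr6:36678464-36678763, plus strand: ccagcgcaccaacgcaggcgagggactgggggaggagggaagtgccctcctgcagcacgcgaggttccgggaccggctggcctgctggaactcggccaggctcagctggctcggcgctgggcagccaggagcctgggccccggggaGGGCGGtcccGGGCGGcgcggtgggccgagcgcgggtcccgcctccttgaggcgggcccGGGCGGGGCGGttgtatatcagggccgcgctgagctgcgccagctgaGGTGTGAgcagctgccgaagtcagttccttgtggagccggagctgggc
CDKN2A, upstream (ARF) start, chr9:21995275-21995574, minus strand: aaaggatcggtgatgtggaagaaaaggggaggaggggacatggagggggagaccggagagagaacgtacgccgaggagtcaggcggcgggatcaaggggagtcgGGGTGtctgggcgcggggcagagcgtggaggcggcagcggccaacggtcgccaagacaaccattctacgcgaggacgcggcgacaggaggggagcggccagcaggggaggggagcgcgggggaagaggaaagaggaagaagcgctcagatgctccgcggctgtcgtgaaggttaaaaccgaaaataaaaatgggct
CDKN2A, downstream (p16INK4a) start, chr9:21974808-21975107, minus strand: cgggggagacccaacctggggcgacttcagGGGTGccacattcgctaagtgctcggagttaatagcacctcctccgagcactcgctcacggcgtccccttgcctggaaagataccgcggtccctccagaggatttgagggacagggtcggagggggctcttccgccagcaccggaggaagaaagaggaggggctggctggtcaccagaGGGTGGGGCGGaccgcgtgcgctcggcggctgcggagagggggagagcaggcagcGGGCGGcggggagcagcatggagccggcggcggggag
CDKN2B, chr9:22009256-22009555, minus strand: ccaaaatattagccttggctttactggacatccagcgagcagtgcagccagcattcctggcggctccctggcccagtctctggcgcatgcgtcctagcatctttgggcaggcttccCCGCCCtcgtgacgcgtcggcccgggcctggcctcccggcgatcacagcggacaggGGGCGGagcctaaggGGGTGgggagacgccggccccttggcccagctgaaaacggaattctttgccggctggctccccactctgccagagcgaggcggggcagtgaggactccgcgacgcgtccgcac
CDKN2C, most upstream start, chr1:50960495-50960794, plus strand: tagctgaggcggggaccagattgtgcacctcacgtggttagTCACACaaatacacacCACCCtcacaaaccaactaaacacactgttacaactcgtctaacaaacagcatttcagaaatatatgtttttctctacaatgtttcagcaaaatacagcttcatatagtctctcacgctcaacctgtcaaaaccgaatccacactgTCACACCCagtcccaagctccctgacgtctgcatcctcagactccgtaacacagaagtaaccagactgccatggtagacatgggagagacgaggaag
The half-site was found in CDKN1A, with its first base at position 3 counted from 1 at the start, and in 1 of the windows of CDKN2C, on the opposite strand. Of all 35116 RefSeq windows of this length, 3.45% held it and 12% held the core. CDKN1A also had 4 GC boxes, at -104, -94, -45 and -40, the last pair overlapping. GC boxes were not particular to it. Among windows not printed, 1 of CDKN2C (chr1:50968456-50968755) had 6, that of CDKN2D had 3 and that of CDKN1B had 1. A further window of CDKN2C (chr1:50969995-50970294) had 1 GC box and 1 core. CDKN2B and the p16INK4a window of CDKN2A had 2 each, and the other printed windows had none. A GC box was held by 45.0% of all windows and a CACCC element by 59.9%. The windows of CDKN2A and CDKN2B had no half-site and no core.

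The libraries held 15852319 to 17543896 reads assigned to genes in sh-NC and 16009859 to 16871350 in sh-KLF5. Values are given as normalized counts, reads divided by 1 size factor per library. KLF5 stood at 4371, 4425 and 4494 in sh-NC and at 1745, 1440 and 1436 in sh-KLF5, so that every library matched its label and 34.8% of the control level remained. Replicates differed by more than counting noise (chi-square per degree of freedom 4.66 to 34.3 between pairs), and sh-KLF5 replicate 1 stood farthest from its group (26.4 and 34.3, against 11.6 between the other pair).

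The defining markers of the labelled cells were checked. Keratins were high, KRT7 ranking 34 and KRT8 ranking 96 of 15803 tested genes in level per kilobase of exon in sh-NC. PAX8, a Müllerian lineage factor, was present at rank 9361 (352 and 303 normalized counts on average in sh-NC and sh-KLF5). Of 11 epithelial and ovarian markers 10 were in the table, WT1 being the exception, and 5 of the 10 (KRT7, KRT8, KRT18, MUC16 and MSLN) fell, MSLN losing its call without sh-NC replicate 3 (adjusted p = 0.052, limma), with the summed level at 54162 to 66196 in sh-NC and 28647 to 39101 in sh-KLF5. Of all tested genes 6.85% fell. None of the 10 rose, the highest log2 difference being 1.14 without a call. SKOV3 is known for amplified ERBB2 and for loss of p16INK4a. ERBB2 ranked 4042 of 15803 in level per kilobase in sh-NC, CDKN2A ranked 1092, and MTAP, the gene beside CDKN2A, ranked 8354 with 932 normalized counts on average. The identity of the cells was not tested, and the DNA was not analysed here. Of 8 fibroblast markers, 5 of the 7 tested fell, beside 6.85% of all tested genes, with summed levels of 1182 to 1710.4 and 403 to 753. The other 2 tested made no call, the highest log2 difference being 0.30. Immune and endothelial markers summed to at most 403 and 87.0, and PTPRC, which marks leukocytes, had at most 1 read in any library. The part of these marker changes in the results that follow was not tested.

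TBX2 (chromosome 17, 61399896 to 61409466 on GRCh38, plus strand) was low in every sh-KLF5 library. The 3 control libraries gave normalized counts of 1021, 714 and 832, and the 3 sh-KLF5 libraries 103, 128 and 103, with means of 856 ± 155 and 111 ± 14.4 (SD, n = 3). The lowest control library was thus far above the highest sh-KLF5 library. The log2 fold change was -2.92 (SE 0.16), given as a description without a test, because the study had picked TBX2 for follow-up from these libraries. That follow-up was a qPCR measurement of TBX2 in SKOV3 cells with KLF5 knocked down, made to verify the fall. In bulk RNA, fewer expressing cells and less RNA per cell cannot be told apart.

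TBX3 (chromosome 12, 114670254 to 114684164, minus strand) moved the other way. It was counted at 321, 337 and 347 in sh-NC and at 605, 511 and 479 in sh-KLF5. All 3 sh-KLF5 libraries lay above all 3 controls. TBX3 rose by a log2 fold change of 0.66 (SE 0.13, 95% interval 0.37 to 0.94, adjusted p = 0.00311, limma with Benjamini-Hochberg adjustment over all tested genes), from 335 ± 13.0 to 532 ± 65.6 (SD, n = 3). Of the tested genes 6.04% rose at this threshold and 6.85% fell, 12.9% in all.

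The balance of the paralogs was inverted. Per kilobase of exon, TBX2 was the more abundant in sh-NC, at a level of 142 ± 25.7 against 56.3 ± 2.18 for TBX3, and the less abundant in sh-KLF5, at 18.5 ± 2.39 against 89.4 ± 11.02. The TBX2 to TBX3 ratio of these levels was 3.14, 2.09 and 2.37 in the control libraries and 0.168, 0.247 and 0.213 in the sh-KLF5 libraries.

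**Figure D1:**
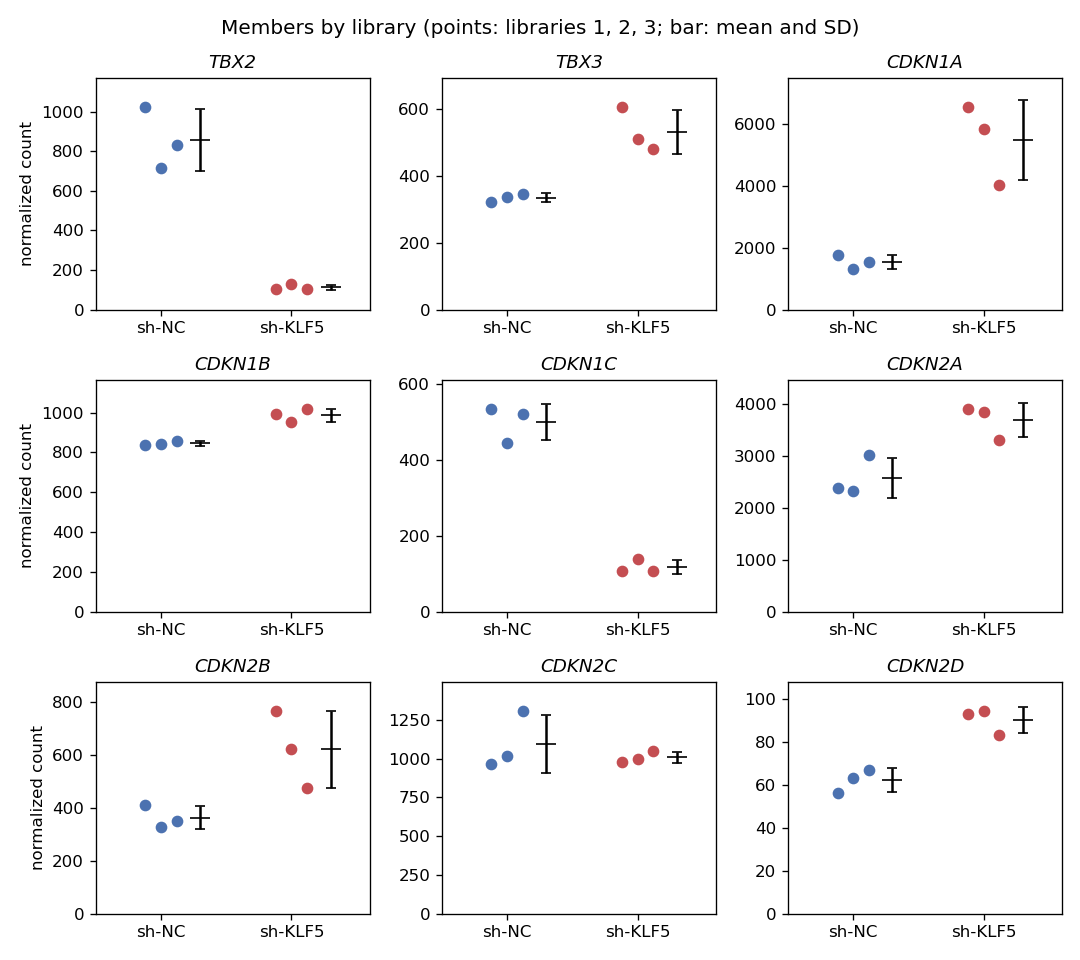
Normalized counts (vertical axes, each starting at 0) of the 9 members in sh-NC (blue) and sh-KLF5 (red); points are libraries 1, 2 and 3 from left to right, and the bar is the mean with SD. TBX2 and CDKN1C were lower in all 3 sh-KLF5 libraries, CDKN2C overlapped between the groups, and the other 6 genes were higher in all 3 sh-KLF5 libraries.

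Of the 7 inhibitor genes, 3 rose (CDKN1A, CDKN2A and CDKN2B), 1 fell (CDKN1C) and 3 did not pass the test (CDKN1B, CDKN2C and CDKN2D), beside 6.04% of all tested genes that rose and 6.85% that fell. A log2 fold change past 1 in addition was met by 1 rise and 1 fall, CDKN1A and CDKN1C, against 1.9% and 3.37% of all tested genes, 5.28% together. By library, 5 of the 7 were higher in all 3 sh-KLF5 libraries than in any control, as were 15.4% of all tested genes, and 1 was lower, as were 15.9%, so that 31.3% of all tested genes were separate in one direction or the other. With 3 libraries against 3, an exact two-sided permutation test of a single gene cannot go below p = 0.1.

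CDKN1A (chromosome 6, 36676460 to 36687339, plus strand), which encodes p21, the inhibitor best known from stress-induced growth arrest, had the largest rise of the family. The control libraries had normalized counts of 1759, 1321 and 1532, and the sh-KLF5 libraries 6529, 5829 and 4022. The lowest sh-KLF5 library was still above the highest control library. The means were 1537 ± 219 and 5459.8 ± 1294 (SD, n = 3), and the change was 3.50-fold (95% interval 2.76 to 4.44), a log2 fold change of 1.81 (SE 0.16, adjusted p = 1.2e-06, limma). By size of fold change CDKN1A ranked 74 among the 955 genes that rose.

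CDKN1C (chromosome 11, 2883213 to 2885773, minus strand), encoding p57, an imprinted inhibitor expressed mainly from the maternal allele, went in the opposite direction. Its counts were 533, 443 and 521 in sh-NC and 106, 138 and 106 in sh-KLF5. No library of either group came near the other group. CDKN1C fell by 2.09 on the log2 scale (SE 0.16, 95% interval -2.43 to -1.75, adjusted p = 2.9e-07, limma) and kept 23.4% of its control mean.

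CDKN1B (chromosome 12, 12715058 to 12722371, plus strand), encoding p27, stood at 838, 841 and 858 in sh-NC and at 993, 952 and 1017 in sh-KLF5. The groups did not overlap, but the log2 difference was 0.22 (95% interval -0.01 to 0.46) with an adjusted p of 0.22 (limma). As a fold the interval ran from 0.991 to 1.37.

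The 4 INK4 genes had smaller log2 differences than CDKN1A and CDKN1C. CDKN2B (chromosome 9, 22002903 to 22009363, minus strand), encoding p15, a known responder to TGF-beta, had counts of 412, 327 and 348 in sh-NC and of 763, 621 and 473 in sh-KLF5. It rose by a log2 fold change of 0.75 (SE 0.16, 95% interval 0.40 to 1.10, adjusted p = 0.00546, limma). The sh-KLF5 libraries were all higher, but spread over a 1.61-fold range.

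CDKN2A (chromosome 9, 21967753 to 21995301, minus strand) was counted at 2372, 2321 and 3007 in sh-NC and at 3889, 3839 and 3304 in sh-KLF5. The groups were separate, with sh-NC replicate 3 close to sh-KLF5 replicate 3. The log2 fold change was 0.52 (SE 0.13, 95% interval 0.25 to 0.79, adjusted p = 0.0109, limma). The call depended on which control was left out: without sh-NC replicate 1 the log2 fold change was 0.47 with an adjusted p of 0.0781, and without sh-NC replicate 2 it was 0.46 with an adjusted p of 0.0973 (limma). It was kept without sh-NC replicate 3. The gene count pools the transcripts for p16INK4a and for p14ARF, a regulator of MDM2 read in another frame, which start at the separate promoters printed above, and it cannot say which of them changed. CDKN2B-AS1, the antisense RNA known as ANRIL, covers 7.88% of the exonic bases of CDKN2A. It had only 44 to 73 reads per library, against 2355 to 3956 for CDKN2A. The strand setting of the counting is not given in the sources used here.

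CDKN2D (chromosome 19, 10566462 to 10569059, minus strand), encoding p19, was the lowest of the family, at 55.9, 63.1 and 66.8 in sh-NC and 92.7, 94.1 and 83.2 in sh-KLF5. The libraries did not overlap, and the log2 difference of 0.53 (95% interval 0.09 to 0.98) was near that of CDKN2A, but the adjusted p was 0.114 (unadjusted 0.0223, limma). CDKN2C (chromosome 1, 50960745 to 50974633, plus strand), encoding p18, was the one inhibitor whose groups overlapped, at 962, 1016 and 1305 in sh-NC and 975, 997 and 1049 in sh-KLF5. Its log2 difference was -0.11 (95% interval -0.38 to 0.17, adjusted p = 0.649, limma). That interval reaches a 1.12-fold rise at most.

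**Figure D2:**
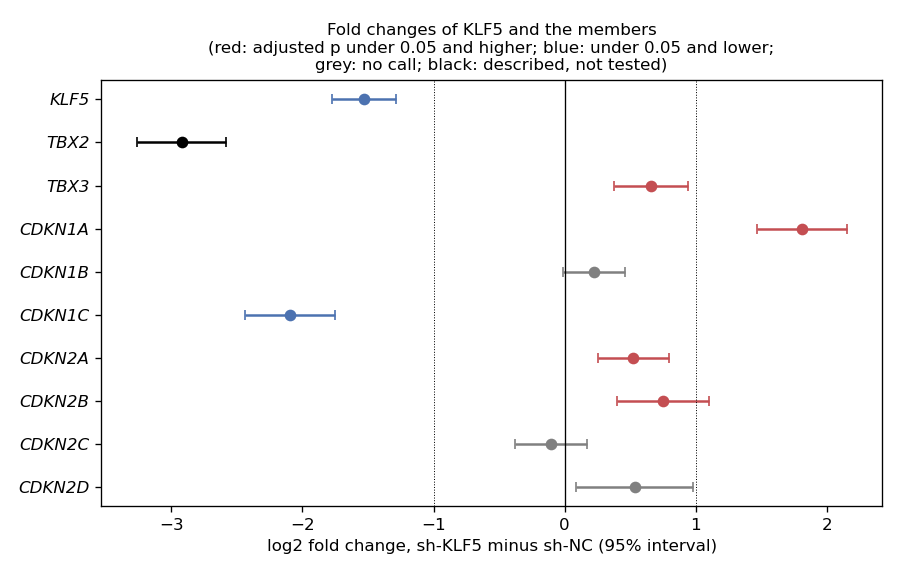
Log2 fold change (horizontal axis, sh-KLF5 minus sh-NC) of KLF5 and the 9 members with 95% intervals; red rose, blue fell, grey made no call, black (TBX2) is described without a test, and dotted lines mark -1 and 1. CDKN1A at 1.81 and CDKN1C at -2.09 lay past the dotted lines on opposite sides, and the INK4 genes lay between -0.11 and 0.75.

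These changes gave the family a different makeup. Summed per kilobase of exon, the CIP/KIP genes stood at a level of 1006 ± 89.8 in sh-NC and 2188 ± 419 in sh-KLF5 (2.17 times higher), and the INK4 genes at 1053 ± 143 and 1365 ± 101 (1.30 times higher; SD, n = 3). In sh-NC both families thus had nearly the same summed level. CDKN1A made up 49.9% ± 2.73 of the CIP/KIP level in sh-NC and 81.3% ± 4.18 in sh-KLF5. The share of CDKN1C went from 20% ± 0.563 to 2.20% ± 0.443, and that of CDKN1B from 30.1% ± 2.73 to 16.5% ± 3.88 without a call on its count. Within a library, CDKN1A had 2.94 to 3.30 times the reads of CDKN1C in sh-NC and 37.8 to 61.6 times in sh-KLF5. CDKN2A held most of the INK4 level in both groups, 56.2% ± 0.737 and 62.2% ± 1.11.

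The order of levels per kilobase also changed. In sh-NC it ran CDKN2A (593 ± 88.3), CDKN1A (504 ± 71.7), CDKN2C (330 ± 55.6), CDKN1B (301 ± 3.96), CDKN1C (201 ± 19.6), CDKN2B (89.3 ± 10.8) and CDKN2D (41.2 ± 3.71), where the mean ± SD ranges overlapped between CDKN2A and CDKN1A and between CDKN2C and CDKN1B. In sh-KLF5 CDKN1A (1790 ± 424) led, followed by CDKN2A (849 ± 74.9), CDKN1B (351 ± 11.7), CDKN2C (304 ± 11.3), CDKN2B (153 ± 35.8), CDKN2D (59.9 ± 3.95) and CDKN1C (47.1 ± 7.37). No neighbouring ranges overlapped there, and CDKN1C went from the middle of the order to its end.

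**Figure D3:**
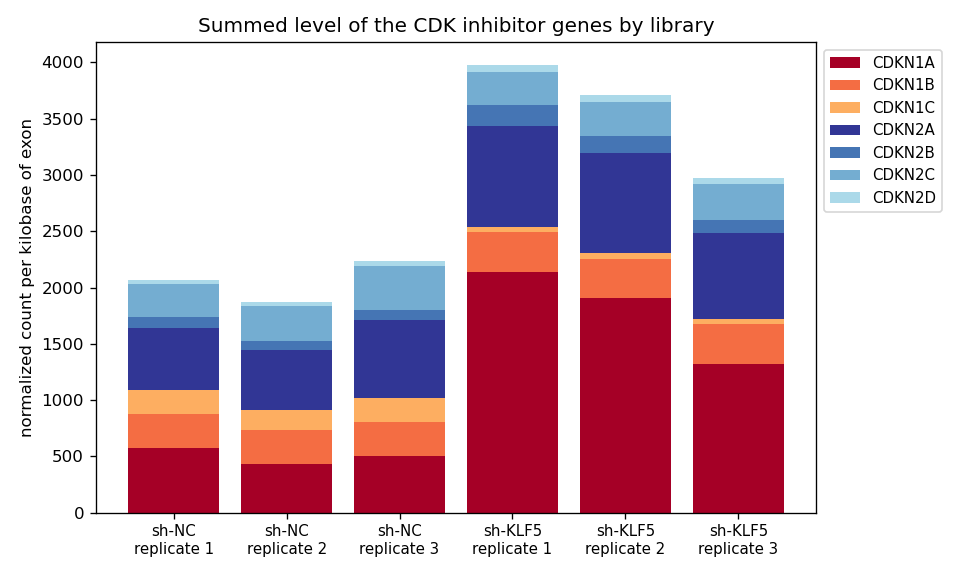
Stacked levels of the 7 inhibitor genes in each library (vertical axis, normalized count per kilobase of exon; CIP/KIP genes in red to orange, INK4 genes in blues). Totals averaged 2059 ± 180 for the controls and 3554 ± 519.7 after silencing (SD, n = 3), and CDKN1A took 24.5% of it in sh-NC and 49.9% in sh-KLF5.

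The 3 sh-KLF5 libraries were not alike. Replicate 1 was the highest and replicate 3 the lowest for TBX3, CDKN1A, CDKN2A and CDKN2B, and the highest was 1.62 times the lowest for CDKN1A. TBX2 did not follow that order, since both of these libraries stood at 103. Without replicate 1 the log2 fold changes of TBX3, CDKN1A, CDKN2A and CDKN2B were 0.56, 1.66, 0.48 and 0.59, each still called, and over all libraries left out in turn CDKN1A stayed between 1.66 and 2.01 and CDKN1C between -2.22 and -2.03.

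Of 15 other T-box genes 11 were in the table and 7 were tested. Of these 3 fell (TBX1, TBX15 and EOMES), beside 6.85% of all tested genes, and 4 did not pass. The list median log2 fold change was -0.39, beside -0.002 over all tested genes. All 3 genes that fell were weakly expressed. TBX1, a factor of pharyngeal development, went from 51.0 ± 17.8 to 2.99 ± 0.988 (log2 fold change -3.68, adjusted p = 2.8e-05, limma). TBX15 had 45, 34 and 15 reads in sh-NC and 0, 2 and 1 in sh-KLF5. EOMES averaged 33.9 normalized counts in sh-NC and had no read in any sh-KLF5 library, at least 11.3-fold lower against a floor of 3 reads per library. MGA, the best expressed of the list, stood at 4938 ± 393 and 4115 ± 267 with no call (adjusted p = 0.154, limma).

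Cyclins and CDKs, the proteins that the inhibitors act on, mostly showed no call. Of 15 tested genes 1 rose and 2 fell, beside 6.04% and 6.85% of all tested genes, and the median was 0.10. Of the D-type cyclins, the partners of CDK4 and CDK6, CCND2 fell, CCND1 rose and CCND3 made no call (log2 difference 0.22, adjusted p = 0.341, limma). CCND2 was counted at 1011, 514 and 601 in sh-NC and at 11.2, 11.6 and 25.1 in sh-KLF5 (log2 fold change -5.42, SE 0.30, adjusted p = 7.3e-09, limma). CCND1 rose from 1506 ± 125 to 2616 ± 99.6 (0.80, adjusted p = 1.3e-04, limma). CCNA2, a cyclin of S phase and G2, fell from 2068 ± 114 to 1331 ± 138 (-0.64, adjusted p = 0.00138, limma). CDK2, CDK4 and CDK6 had log2 differences of -0.19, 0.14 and -0.03 and no call.

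Genes of the RB and E2F network were tested in 19 cases, of which 1 rose and 3 fell (median -0.22), beside 6.04% and 6.85% of all tested genes. E2F1 and E2F2, activators of S-phase genes, fell from 1454 ± 109 to 974 ± 83.5 and from 552 ± 54.6 to 322 ± 81.0 (log2 fold changes -0.58 and -0.80, adjusted p = 0.00306 and 0.00375, limma). E2F7, a repressor among the E2F factors, rose by 0.37 and LIN52 of the DREAM complex fell by 0.54, and each call was lost without single libraries, for E2F7 at worst without sh-NC replicate 3 (0.32, adjusted p = 0.169, limma) and for LIN52 likewise without sh-NC replicate 3 (-0.42, adjusted p = 0.175, limma). With all 6 libraries E2F7 also lost its call when scaled by library size only, without a filter or with at least 10 reads in every library (adjusted p = 0.0542, 0.0593 and 0.0516, limma). RB1 stood at 2121 ± 34.2 and 1857 ± 470 with no call.

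Of 32 tested regulators of the inhibitors (ubiquitin ligase parts, ID proteins, FOXO and SMAD factors, MYC, Polycomb proteins, KLF4, KLF6 and SP1), 4 rose and 4 fell, with a median of -0.04, beside 6.04% and 6.85% of all tested genes. DTL, the substrate receptor of the ligase that marks p21 for degradation, fell from 1840 ± 73.8 to 982 ± 55.4 (log2 fold change -0.91, adjusted p = 3.4e-05, limma). SKP2, which targets p27, showed a log2 difference of -0.24 and MYC, a repressor of CDKN1A and CDKN2B, one of 0.32, both without a call. ID4 averaged 48.5 normalized counts in sh-NC and had 0, 0 and 1 reads in sh-KLF5. The other calls (rises of ID3, BMI1, KLF4 and KLF6, falls of CBX2 and EZH2) were smaller than 0.8 and each was lost when single libraries were left out. At the weakest, adjusted p was 0.115 for ID3 without sh-KLF5 replicate 1, 0.0628 for BMI1 and 0.138 for CBX2 without sh-NC replicate 3, and 0.116 for KLF4, 0.215 for KLF6 and 0.179 for EZH2 without sh-NC replicate 2 (limma). KLF6 also lost its call without a filter or with at least 10 reads in every library (adjusted p = 0.06 and 0.0514, limma). BMI1 and EZH2 are Polycomb proteins known to silence CDKN2A, and they went in opposite directions.

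**Figure D4:**
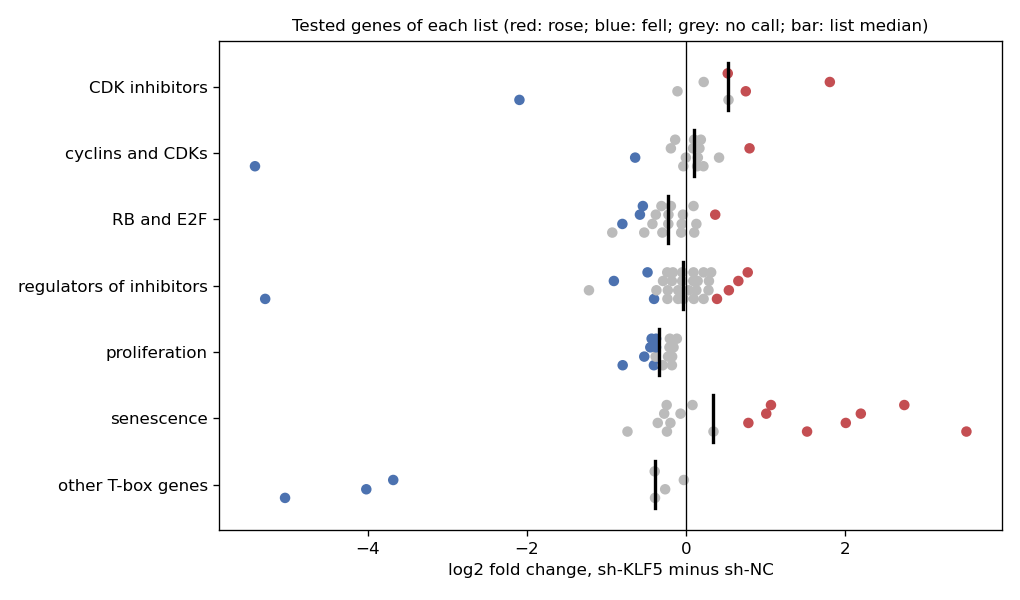
Log2 fold change (horizontal axis, sh-KLF5 minus sh-NC) of every tested gene in 7 lists; red rose, blue fell, grey made no call, and the black bar is the list median. The inhibitor and senescence lists had medians of 0.52 and 0.35, and the proliferation list one of -0.33.

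Genes of the senescence programme, the state that TBX2 is known to hold back, were in part higher. Of 17 tested genes 8 rose, beside 6.04% of all tested genes, and 9 did not pass (median 0.35), and 7 of the 8 rose past a log2 fold change of 1. All 8 encode secreted proteins, among them MMP3 (85.6 ± 10.5 to 1015 ± 279, 3.52), CCL2 (8.49 ± 2.86 to 61.8 ± 15.4, 2.74), CXCL1 (2.20), CXCL8 (136 ± 20.6 to 407 ± 150, 1.52) and IGFBP7 (181 ± 44.6 to 383 ± 112, 1.07). CXCL1 was counted at 118, 109 and 194 in sh-NC and 889, 843 and 329 in sh-KLF5, and its call was lost without sh-KLF5 replicate 1 (adjusted p = 0.108), sh-NC replicate 1 (0.110) or sh-NC replicate 2 (0.0642; limma). Other secreted members did not pass, such as MMP1 (-0.74, adjusted p = 0.0505, limma) and IL1B (-0.20). LMNB1, a lamin lost in senescence, differed by -0.24 (adjusted p = 0.192, limma) and GLB1, the source of senescence-associated beta-galactosidase activity, by 0.08, both without a call.

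Proliferation genes had negative log2 differences throughout, with calls that depended on single libraries. Of 16 tested genes 7 fell, beside 6.85% of all tested genes, and 9 did not pass (median -0.33, range -0.80 to -0.11). MKI67 was counted at 18428, 21355 and 18862 in sh-NC and at 7769, 11465 and 15929 in sh-KLF5 (log2 fold change -0.80, adjusted p = 0.0149, limma). Replicate 1, the highest for CDKN1A, was the lowest for MKI67, and replicate 3, the lowest for CDKN1A, was the highest. The other 6 encode subunits of the MCM2-7 replicative helicase, with log2 fold changes from -0.52 to -0.38. The mitotic genes AURKA, BUB1, PLK1 and TOP2A gave differences of -0.21 to -0.11 and no call. The count of falls was 3 without sh-KLF5 replicate 2, 2 without sh-NC replicate 1 and 0 without sh-NC replicate 2 or without sh-NC replicate 3.

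Other genes linked to TBX2 or TBX3 in earlier reports gave calls in both directions. Which of them TBX2 or TBX3 represses in these cells was not tested. Of 8 tested, 1 rose (EGR1, 511 ± 55.5 to 1369 ± 266, 1.41) and 3 fell (GJA1, NDRG1 and COL1A2), beside 6.04% and 6.85% of all tested genes, with a median of -0.17. COL1A2, also one of the fibroblast markers, had log2 fold changes from -4.94 to -2.26 under the alternatives that kept all libraries. GJA1, encoding connexin 43, fell from 731 ± 198 to 25.4 ± 6.25 (log2 fold change -4.79, adjusted p = 1.4e-09, limma), and NDRG1 from 771 ± 70.3 to 416 ± 83.0 (-0.90, adjusted p = 4.8e-04, limma). CDH1 differed by -0.15 with no call. Of 14 corepressors and chromatin partners, including HDAC1 (log2 difference 0.003), 1 fell, near the 6.85% of all tested genes that did, and 13 did not pass. The call was that of KDM1A (-0.47, adjusted p = 0.0081), whose adjusted p was 0.064 without sh-NC replicate 2 (limma).

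Beside TBX2, the antisense gene TBX2-AS1 overlaps its locus without sharing exonic bases and was itself lower (52, 58 and 34 reads in sh-NC; 9, 24 and 14 in sh-KLF5). The 10 tested genes within 1 Mb of TBX2 had a median log2 difference of -0.28, beside -0.002 over all tested genes. Of the 10, 2 fell, beside 6.85% of all tested genes. They were TBX2-AS1 and BRIP1 (-0.65, adjusted p = 0.0099; 0.0933 without sh-NC replicate 2 and 0.0622 without sh-KLF5 replicate 2, limma). BCAS3, the nearest tested coding gene, differed by -0.41 (adjusted p = 0.0652, limma), and TBX4, 42.9 kb away, had at most 3 reads. TBX2-AS1 lost its call without sh-NC replicate 2 (-1.47, adjusted p = 0.0596, limma). The only tested gene within 1 Mb of TBX3, RBM19, fell by 0.52 (adjusted p = 0.0207; 0.0592 and 0.123 without sh-NC replicate 1 or 3, limma).

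Around CDKN2A and CDKN2B, 11 further genes within 1 Mb were tested, of which 1 fell, beside 6.85% of all tested genes. CDKN2B-AS1 stood at 57.0 and 59.6 normalized counts (log2 difference 0.06, adjusted p = 0.924, limma) and MTAP at 932 and 711 (-0.39, adjusted p = 0.0752, limma). The gene that fell, AL359922.3, had 15 to 20 reads in sh-NC and 2 to 9 in sh-KLF5, and its call was lost without any of 4 libraries, at worst without sh-NC replicate 2 (adjusted p = 0.161, limma).

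The neighbourhood of CDKN1C, looked at after its fall was seen, is an imprinted domain whose silencing on the paternal allele is known to depend on the long noncoding RNA KCNQ1OT1. KCNQ1OT1 was counted at 954, 1083 and 726 in sh-NC and 491, 620 and 532 in sh-KLF5. It fell by 0.74 on the log2 scale (adjusted p = 0.00317, limma), in the same direction as CDKN1C. SLC22A18, 13.9 kb away and imprinted with CDKN1C, rose from 150 ± 8.79 to 243 ± 25.6 (0.68, adjusted p = 0.00871, limma), and PHLDA2 differed by 0.25 without a call. KCNQ1, the nearest tested gene on the other side, differed by -1.82 without a call (adjusted p = 0.133, limma). It had few reads, 12, 12 and 18 in sh-NC and 5, 11 and 0 in sh-KLF5. Of 18 tested genes within 1 Mb, 1 rose and 1 fell, near the 6.04% and 6.85% of all tested genes that did.

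**Figure D5:**
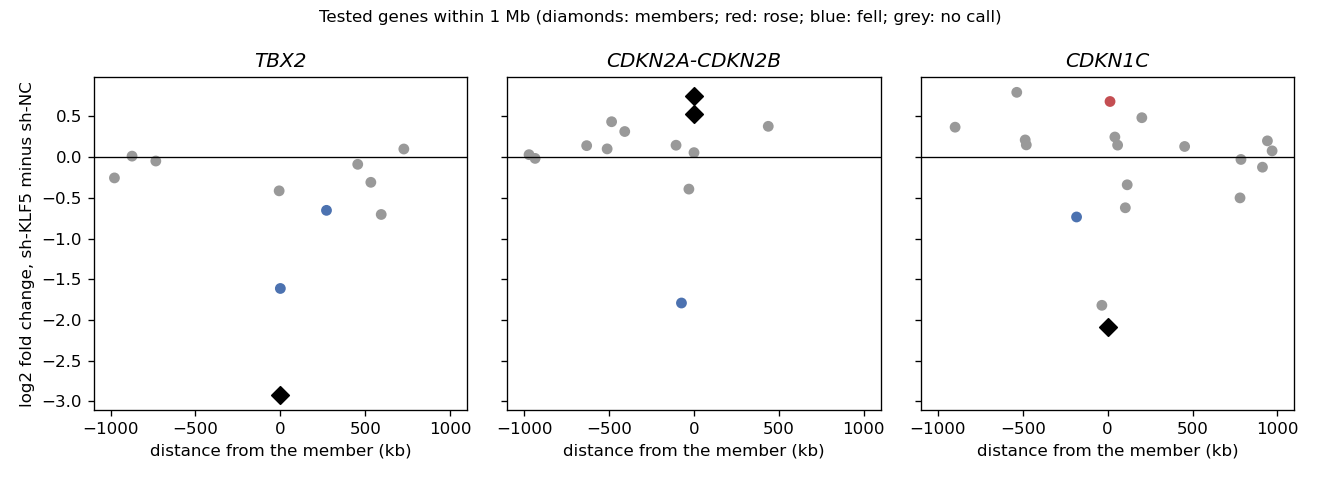
Log2 fold change (vertical axis, sh-KLF5 minus sh-NC) of tested genes by distance in kb (horizontal axis) from TBX2, from the CDKN2A-CDKN2B locus and from CDKN1C; diamonds are the members, red rose, blue fell and grey made no call. The members TBX2 (-2.92) and CDKN1C (-2.09) lay below every tested neighbour, and CDKN2A and CDKN2B (0.52 and 0.75) above every tested neighbour.

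The genes whose pattern over the 6 libraries was most like that of a member were found by the root mean square difference of log2 values centred on each gene. For TBX2 they were NES, CRAT, ANK2, OLFM2 and ZNF516 (0.147 to 0.294), for TBX3 they were GK, FUT8, C6orf120, MR1 and FSD1 (0.0456 to 0.0566), and for CDKN1A they were SLFN5, CASP1, IL33, LIF and TLR4 (0.128 to 0.148). Because likeness was measured over all 6 libraries, a fold change near that of the member follows from the choice and is no added result. NES, the closest to TBX2, went from 1114 to 126 normalized counts. The study had also picked NES (as NESTIN) for qPCR among the falling genes of these libraries. LIF and TLR4, cytokine and innate immune genes, went from 302 to 1092 and from 205 to 735.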

How the data were processed

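The members, the gene lists and the tests were chosen with earlier results of these data known. The deposited table gives, per gene, the signal of each of the 6 libraries as a normalized count, a read count that the authors divided by 1 size factor per library. All values were whole multiples of a per-library step (tolerance 1e-06), and 100% came out whole as reads; count tests on these reads (edgeR, 1007 genes rose and 1086 fell; DESeq2, 1090 and 1180) were alternatives. The submitters' processing notes name hg38, HISAT2 2.0.5, featureCounts 1.5.0-p3 and DESeq2 1.20.0; the strand setting is not given in the sources used here. The authors' own log2 fold changes, p-values and adjusted p-values are also in the deposited table and were not used. Groups came from the sample labels.

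Genes with enough reads by edgeR 4.0.16 filterByExpr (minimum count 10) were tested with limma 3.58.1 (trend, robust; R 4.3.3) on log2(normalized count + 1), group as the only term, with Benjamini-Hochberg adjustment over all 15803 tested genes; fold changes are on this scale and understate low genes. Genes with adjusted p under 0.05 are said to have risen or fallen. Levels per kilobase divide by the exonic length given in the table. Alternatives were pseudocounts of 0.1 and 5, no filter, at least 10 reads in every library, TMM factors, library size alone, edgeR and DESeq2 1.42.0 on the reads, the replicate number as a block, and each library left out. The pipeline was tested on simulated counts. Named genes were the members, genes overlapping or antisense to them, up to 6 called genes per list and direction, called or adjacent genes within 1 Mb, and for TBX2, TBX3 and CDKN1A the 5 genes most like each; the CDKN1C neighbourhood was added after values were seen. Some genes of the lists are not reported here. Coordinates are from GENCODE 29 (matched for 29180 of 29185 genes) and promoter sequences from RefSeq. The 95% intervals come from the limma fit and rest on the spread between libraries, whereas the floor covers counting error only; 3 reads, the floor used for a gene without reads, correspond to 2.79 to 3.18 normalized counts.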

Additional observations from a re-analysis of the deposited data

How the results depend on the processing

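No member changed its call under another pseudocount, filter or scaling, under edgeR or DESeq2, or with the replicate number as a block. With a log2 fold change past 1 also required, 1 inhibitor rose in place of 3, and 301 genes rose and 533 fell in place of 955 and 1083. The block gave 1292 rises and 1383 falls. Same-numbered libraries correlated weakly in their deviations, at 0.0590, 0.0331 and 0.0504, although each library correlated best with its own number. These values do not settle whether the libraries were paired. CXCL1 lost its call with the block (adjusted p = 0.211, limma), and no member did. With each library left out in turn, 518 to 1272 genes rose and 699 to 1514 fell, TBX2 ranged from -3.04 to -2.79, KLF5 from -1.62 to -1.48, TBX3 from 0.56 to 0.73, CDKN1A from 1.66 to 2.01, CDKN1B from 0.20 to 0.25, CDKN1C from -2.22 to -2.03, CDKN2A from 0.46 to 0.64, CDKN2B from 0.59 to 0.93 and CDKN2D from 0.46 to 0.59. CDKN2C ranged from -0.19 to 0.03 and changed sign to 0.026 without sh-NC replicate 3 (adjusted p = 0.93, limma); the cause was not tested. Leaving out a library was added for the lists after seeing the data: 2 to 3 inhibitors rose and 1 fell; 7 to 9 senescence genes rose and 0 to 1 fell; 0 to 8 proliferation genes fell; 1 to 2 cyclin or CDK genes rose and 2 fell; 0 to 1 RB or E2F genes rose and 2 to 6 fell; 1 to 4 regulators rose and 2 to 6 fell; 3 other T-box genes fell. Of 52 other named genes, 22 lost a call in at least 1 alternative and 0 changed sign. A library left out changes both the spread and the number of samples.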
